A study of Mustela putorius furo with 10 samples.

Results

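Cytotoxic lymphocytes, that is natural killer (NK) cells and CD8 T cells, were described in ferret blood through 10 genes that mark them or arm them: NCR1, KLRD1, KLRB1, GZMA, GZMB, GZMK, PRF1, NKG7, EOMES and XCL1. Each symbol was looked up in the RefSeq ferret gene table (assembly ASM1176430v1.1) and matched to the array through the RefSeq transcript that a probe was designed on. Of the 10 genes, 4 were matched, namely GZMA, GZMK, PRF1 and NKG7, and these 4 also had the ferret RNA well above background on at least 4 of the 10 arrays, among 26303 genes that met this condition. KLRB1 and EOMES are in the table under transcripts other than those of the probes, and NCR1, KLRD1, GZMB and XCL1 are not symbols of the table, so these 6 genes were not analysed here.

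The samples were peripheral blood mononuclear cells (PBMC), prepared by Ficoll gradient from male ferrets of 3 months. The control group (n = 6) was kept at 22 °C and the cold group (n = 4) at 4 °C for 1 week. The methods mention individual housing where they describe the cold group, and whether this also held for the controls is not clear there. If it did not, temperature and housing cannot be told apart. The RNA of each ferret was labelled with the green dye Cy3 and hybridised to its own 2-colour array, together with a reference pool of PBMC and other ferret tissues labelled with the red dye Cy5, the same on every array. Levels are given below as the log2 ratio of Cy3 to Cy5 after loess normalisation, so that 0 stands for the typical gene of that brightness and a change of 1 is 2-fold, and, where stated, as the log2 intensity of Cy3 alone after quantile normalisation.

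A cytotoxic cell kills by secreting granules onto its target. Perforin opens the membrane of the target, and granzymes, which are serine proteases stored in the same granules, enter through it and cleave proteins inside. NK cells do this on the balance of activating and inhibitory receptors, and CD8 T cells on recognition of an antigen. In PBMC the transcripts of the granule proteins come mainly from these cell types, and since the RNA is that of a mixture, fewer such cells and less RNA per cell cannot be told apart.

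None of the 4 measured cytotoxic genes was called different between cold and control ferrets. The largest of the 4 log2 changes was 0.17, for GZMK. By limma, 0 of 4 passed the unadjusted threshold of 0.01 used in the methods, against 8.64% of all genes tested, and 0 of 4 reached an unadjusted p under 0.05, against 24.7%. No gene of the array passed an adjusted p of 0.05 in this fit, where the lowest adjusted p was 0.0576. This count of 0 over the array depended on the processing and on single ferrets. With all ferrets kept, 741 genes passed in Cy3 alone, 115 with Cy3 required above background on all 10 arrays and 5 with slide position as a block. Leaving out cold replicate 2 let 1272 genes pass, leaving out control replicate 5 let 633 pass and leaving out cold replicate 1 let 12 pass. None of the 4 was called in those fits, though NKG7 was not tested where Cy3 had to be above background on all 10 arrays. By the methods' t-test 0 of the 4 were called too, and for each of the 4 genes the groups overlapped, as they did for all but 5.22% of genes. So few genes cannot be told apart from the array in this count.

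GZMA encodes granzyme A, a trypsin-like protease of the granules. It was read by 4 probes on 8 spots, all well above background in both channels on all 10 arrays. Its log2 ratio in the control ferrets ran from 0.0052 through a median of 0.87 to 2.29. In the cold ferrets it was 0.36, 2.04, 0.0023 and 1.84. Both groups thus held ferrets with a high and ferrets with a low level: the highest value was in control replicate 3, followed by cold replicates 2 and 4, and the lowest values were in cold replicate 3 and control replicate 2. The means were 0.96 ± 0.84 (SD, n = 6) and 1.06 ± 1.03 (SD, n = 4), a log2 change of 0.09 ± 0.51 (SE) with a limma p of 0.856 and an adjusted p of 0.930. The 95% confidence interval of this change, from −1.02 to 1.21, ran from a 0.494-fold to a 2.31-fold level in the cold. The data are thus compatible with changes of either sign within these bounds.

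PRF1 encodes perforin, the pore-forming protein. The array carried it as 2 transcript variants with 8 probes on 24 spots, all above background in both channels. The log2 ratio of PRF1 ran from 0.24 through a median of 0.46 to 1.23 in the controls, and was 0.55, 0.89, 0.06 and 1.14 in the cold ferrets. Control replicates 6 and 3 and cold replicates 4 and 2 were the 4 highest, and cold replicate 3 was the lowest of all. The group means were 0.64 ± 0.42 (SD, n = 6) and 0.66 ± 0.47 (SD, n = 4). The log2 change was 0.02 ± 0.25 (SE), with a 95% confidence interval from −0.52 to 0.56 and a limma p of 0.936. The 2 variants differed little, at 0.03 and 0.01.

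GZMK encodes granzyme K, another trypsin-like granzyme, typical of memory-like CD8 T cells. The log2 ratio of GZMK lay between 0.29 and 0.55 in the controls, with a median of 0.35, and was 0.77, 0.47, 0.31 and 0.68 in the cold. Cold replicates 1 and 4 lay above every control, and cold replicates 2 and 3 within their range. The log2 change was 0.17 ± 0.10 (SE), with a 95% confidence interval from −0.05 to 0.40, a limma p of 0.112 and an exact permutation p of 0.110 over the 210 splits of the 10 arrays. Without cold replicate 1 it was 0.10. The gene was dim. At least 50% of its spots had Cy3 above background on 9 arrays, but Cy5 on 2 only, so that the ratio was set against a reference near background. In Cy3 alone the sign turned, at −0.15 ± 0.21 (SE), with a limma p of 0.502.

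NKG7 encodes a membrane protein of the cytotoxic granules that takes part in their release. At least 50% of its spots had Cy3 above background on 6 of 10 arrays, and Cy5 reached that share on 0. The log2 ratio of NKG7 ran from −0.0017 through 0.19 to 0.27 in the controls and was 0.48, 0.18, 0.05 and 0.40 in the cold ferrets. Cold replicates 1 and 4 were above every control. The log2 change was 0.10 ± 0.10 (SE), with a limma p of 0.352, and in Cy3 alone it was −0.23 ± 0.14 (SE), with a limma p of 0.127. In the ratio it was 0.027 without cold replicate 1, 0.056 without cold replicate 4 and 0.17 without cold replicate 3. The low value of control replicate 5 came from a single probe at −1.70, whereas the other 3 probes of NKG7 read 0.48 to 0.72 there. Without that probe, a choice made after its value was seen, control replicate 5 stood at 0.56, above all other ferrets (cold replicate 1 was at 0.54 and cold replicate 4 at 0.38), and the change of NKG7 was −0.01.

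**Figure D1:**
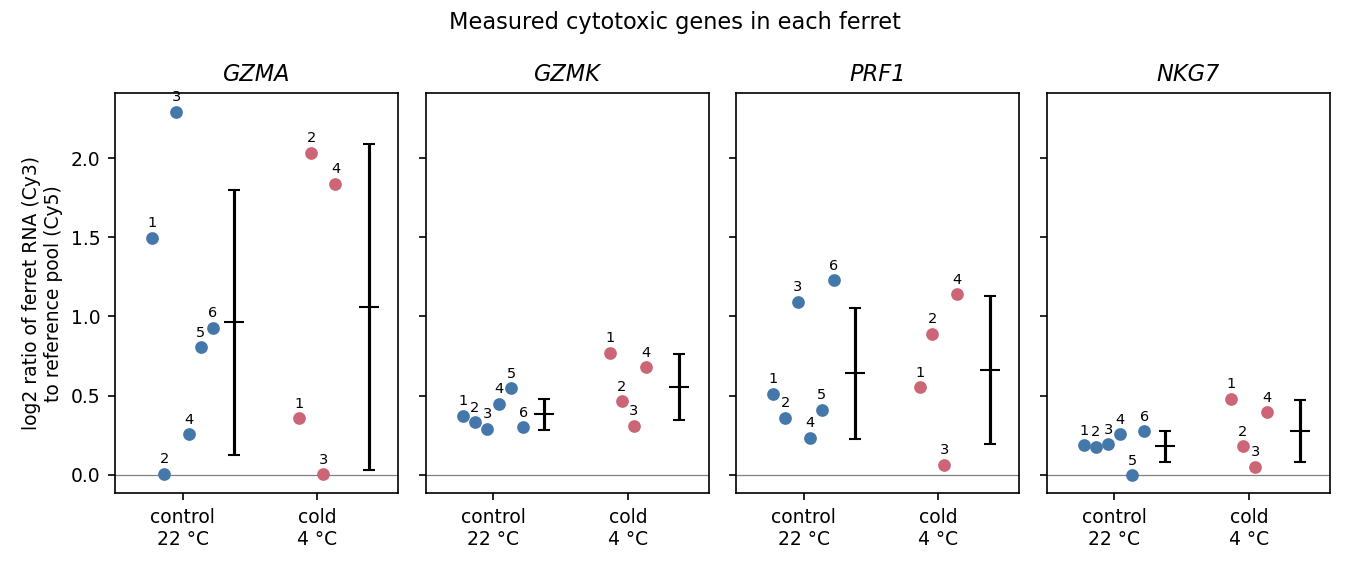
Log2 ratio of ferret RNA to the reference pool (y axis) for the 4 measured cytotoxic genes in each control (blue, n = 6) and cold (red, n = 4) ferret. Points carry the replicate number and the bars give the mean ± SD. The ferrets of both groups spread from about 0 to above 2 for GZMA, and the groups overlap for all 4 genes.

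The reference channel was examined as a control, since it holds the same RNA on every array. Before normalisation it was brighter on some of the cold arrays, with a median Cy5 intensity per array of 48 to 152 in the cold and 44 to 80 in the controls. The unnormalised log2 Cy5 intensity of GZMA was 8.36 ± 1.02 (SD, n = 6) in the controls and 10.15 ± 1.23 (SD, n = 4) in the cold, with an exact permutation p of 0.0476, and that of PRF1 was 8.47 ± 0.97 and 10.21 ± 1.17, with the same exact p. For the dim genes these means were 5.45 and 5.89 for GZMK and 5.36 and 5.55 for NKG7, with exact permutation p values of 0.110 and 0.367. For each of the 4 genes this difference in unnormalised Cy5 was larger than the change in the normalised ratio given above, and its part in that change was not tested. After quantile normalisation of Cy5, which sets all arrays to 1 distribution, the log2 difference between cold and control was 0.06 for GZMA, 0.00 for PRF1, 0.03 for GZMK and −0.06 for NKG7, with limma p values from 0.378 to 0.978. For comparison, 1.79% of all genes had a p under 0.01 in that channel after normalisation.

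GZMA and PRF1 varied widely between ferrets of the same group. The pooled SD of the log2 ratio within the groups was 0.91 for GZMA, higher than for 99.7% of the genes tested, and 0.44 for PRF1, higher than for 91.6%. The median over all genes was 0.19. In Cy3 alone the SD was 1.10 for GZMA and 0.70 for PRF1, above 99.9% and 98.2% of genes. From the lowest to the highest of the 10 ferrets, GZMA spanned 4.90-fold and PRF1 2.25-fold in the ratio, and 6.50-fold and 4.11-fold in Cy3 intensity. For GZMK and NKG7, whose reference was dim, the ratio spanned 1.40-fold each, and Cy3 intensity spanned 2.22-fold and 1.80-fold. The SD of GZMK in Cy3 was above that of 89.2% of genes.

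The agreement of the probes of a gene was then examined. Between the 4 probes of GZMA the Pearson correlation over the 10 arrays was 0.92 to 0.96 in the ratio and 0.98 to 1.00 in Cy3, and between the 8 probes of PRF1 it was 0.47 to 0.99, with a median of 0.87, and 0.97 to 1.00. The probes share an array and its RNA, so these values describe the reading of a sample and not the animals. For the dim genes it was in the ratio 0.59 to 0.87 with a median of 0.67 for GZMK, and −0.70 to 0.77 with a median of 0.21 for NKG7. Each of the 4 NKG7 probes was lower in the cold in Cy3 alone, whereas 3 of 4 were higher in the ratio.

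GZMA and PRF1 also tended to be high in the same ferrets. Over the 10 arrays their log2 ratios had a Pearson r of 0.76 (permutation p = 0.0147) and a Spearman rho of 0.78 (permutation p = 0.0103). Adjusted over the 6 pairs of the 4 genes, these p values were 0.0883 and 0.0621, so that the relation missed the adjusted threshold. Without the 2 ferrets farthest from the median of GZMA, r was 0.70, and it was 0.64 among the 6 controls and 0.54 among the 6 arrays of slide position 1. The 4 cold ferrets and the 4 arrays of position 2 were too few for a value of their own. In Cy3 alone, r was 0.72 (permutation p = 0.0207, adjusted 0.0618) and rho 0.79 (permutation p = 0.00861, adjusted 0.0517). The other 5 pairs gave r from 0.00 to 0.60 in the ratio, with adjusted permutation p values of 0.204 and above. In Cy3 alone GZMA and PRF1 did not stand apart by Pearson r, since NKG7 had an r of 0.67 both with GZMA and with PRF1, each with the same adjusted permutation p of 0.0618.

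**Figure D2:**
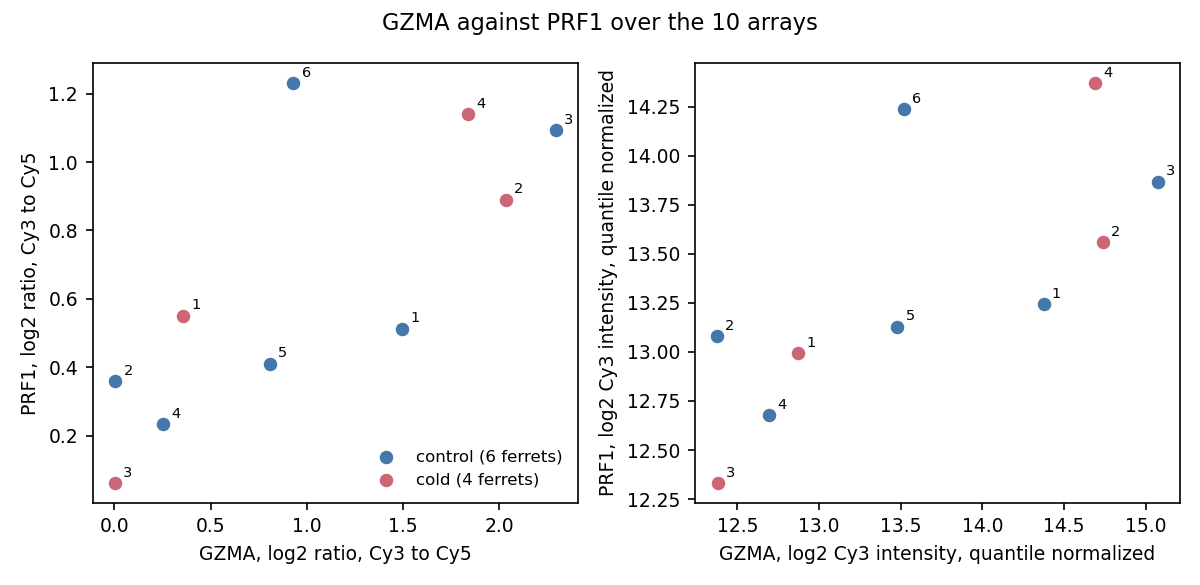
PRF1 against GZMA in each of the 10 ferrets, as log2 ratio of Cy3 to Cy5 (left) and as log2 Cy3 intensity after quantile normalisation (right), with replicate numbers; control in blue, cold in red. High and low ferrets of both groups lie along the same rising band, with a Pearson r of 0.76 in the ratio and 0.72 in Cy3.

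The slide position of an array, 1 or 2, was the only technical factor read from the scanner output that divided the arrays. Batches of RNA extraction or labelling were not known here, and the arrays also differed in the median Cy5 intensity given above. Within position 1 (4 control, 2 cold) the cold minus control difference of GZMA was 0.52, and within position 2 (2 and 2) it was −0.63. For PRF1 it was 0.14 and −0.15. In both positions GZMK was higher in the cold, by 0.26 and 0.08, and NKG7 by 0.11 and 0.13. Without the probe of NKG7 named above, these last values were 0.10 and −0.16. Only GZMK in position 1 had no overlap between the groups.

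The pathway around these genes was followed through 88 further genes in 9 lists, from receptors to secreted effectors, of which 49 were measured. By limma, 3 of the 49 passed the unadjusted threshold of 0.01, against 8.64% of all genes: VAMP7 rose, as did 5.21% of all genes, and IKZF3 and IL2RG fell, as did 3.43%. Over the lists 29 genes were higher and 20 lower in the cold, with a median log2 change of 0.05, beside −0.01 over all genes tested. In Cy3 alone 6 of the 49 passed, all lower in the cold. Of all genes 9.84% passed there, and 4.36% passed as lower in the cold. Of the 3 genes called in the ratio only IL2RG was among the 6. VAMP7 was at 0.43 and IKZF3 at −0.58 in Cy3 alone, with limma p values of 0.0269 and 0.01005.

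Among the surface receptors 0 of 9 measured genes were called by limma, and 2 had an unadjusted p under 0.05, a threshold that 24.7% of all genes passed. NCR3, an activating receptor also called NKp30, had a log2 change of −0.09 ± 0.26 (SE). KLRG1, an inhibitory receptor of mature NK and effector T cells, stood at 0.15 ± 0.13. CD244, a receptor of the SLAM family, was at 0.25 ± 0.10 with a limma p of 0.0315, and KLRF1, an activating lectin-like receptor, at 0.06 ± 0.08. The largest change of the list was that of CD2, an adhesion receptor of T and NK cells named here after its value was seen, at −0.44 ± 0.18 with a limma p of 0.0303, and at −0.21 without cold replicate 3. CD2 was called in Cy3 alone, at −0.82 with a limma p of 0.00824, and with the median over probes. Without 1 ferret, KLRG1 ran from 0.089 to 0.24 and KLRF1 from 0.013 to 0.083. The value of KLRF1 rests on 1 of its 4 probes and that of CD244 on 5 of 8. CD244 and KLRF1 were dim, with under 50% of their Cy3 spots above background on several arrays.

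The adaptors that carry receptor signals into the cell held the lowest changes of the pathway, though 0 of 7 were called. Of the 7, 2 were higher and 5 lower in the cold, and 1 of the higher and 3 of the lower had an unadjusted p under 0.05, as did 12.2% and 12.5% of all genes. CD247, the zeta chain shared by the T cell receptor and several NK receptors, had a log2 change of −0.59 ± 0.20 (SE), with a limma p of 0.0122 and an adjusted p of 0.122. HCST, the adaptor of the NKG2D receptor, had −0.54 ± 0.18 (SE), with a limma p of 0.0109 and an adjusted p of 0.118. Every cold ferret lay below the control mean for both. Without cold replicate 3 the changes were −0.33 for CD247 and −0.35 for HCST. Both were called with array weights and without cold replicate 4. CD247 was also called without background subtraction and without control replicate 4 or cold replicate 1, and HCST with the median over probes and without cold replicate 2. In Cy3 alone both passed the threshold of 0.01, at −0.78 for CD247 and −0.82 for HCST. SH2D1B, an adaptor of the SLAM receptors named here after its value was seen, stood the other way, at 0.42 ± 0.15 (SE) with a limma p of 0.0186, but at 0.15 in Cy3 alone. It was called higher with array weights, with the median over probes and without control replicate 5 or cold replicate 2. FCER1G, the Fc receptor gamma chain, which myeloid cells express as well, stood at 0.27 ± 0.15.

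Of the other granule proteins 0 of 3 were called. GNLY, or granulysin, which permeabilises microbial membranes, had a log2 change of −0.11 ± 0.30 (SE). CTSC, the cathepsin that activates progranzymes, was at −0.09 ± 0.10. CTSW, a cathepsin of NK and CD8 T cells, was at −0.27 ± 0.18, and at −0.037 without cold replicate 3. All 3 had overlapping groups.

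The machinery that docks and fuses granules held the 1 gene that rose. VAMP7, a vesicle SNARE found in many cell types, had log2 ratios from 0.09 through a median of 0.18 to 0.39 in the controls and of 0.34, 0.65, 0.87 and 0.76 in the cold. Every cold ferret lay above the control mean, and cold replicate 1 lay within the control range. The log2 change of VAMP7 was 0.44 ± 0.11 (SE), with a limma p of 0.00235 and an adjusted p of 0.0802. Of the 9 measured genes of this list 8 were higher in the cold, among them STX11, a syntaxin of granule fusion, at 0.29 ± 0.10 with a limma p of 0.0137, and UNC13D, which primes granules, at 0.03 ± 0.09. STX11 was dim, with Cy5 above background at 0% of its spots on every array, and in Cy3 alone it was at 0.15 with a limma p of 0.120. VAMP7 lost its call with the software-processed intensities, where it was at 0.38 with a limma p of 0.0467, and with the deposited table, at 0.19. With each array centred on its median in place of loess, VAMP7 was at −0.20.

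Among the transcription factors 1 of 5 was called by limma, against 8.64% of all genes. IKZF3 encodes Aiolos, a zinc finger factor of B, T and NK lymphocytes. Its log2 ratio lay between −0.09 and 0.17 in the controls, with a median of 0.05, and was −0.32, −0.13, −0.53 and −0.57 in the cold. All 4 cold ferrets lay below all 6 controls. The groups were as fully apart, in either direction, for 5.22% of all genes. Cy3 was above background at every spot of IKZF3, but Cy5 at 50% of its spots or more on 4 of 10 arrays only. IKZF3 fell by 0.42 on the log2 scale, with an SE of 0.10, a limma p of 0.00143 and an adjusted p of 0.0736, and its exact permutation p of 0.00476 is the smallest that the 210 splits allow. IKZF3 lost its call in Cy3 alone, with the deposited table and with the replicate number as a block. TBX21, or T-bet, a driver of the cytotoxic programme, was at 0.41 ± 0.24 (SE), and ID2, needed for NK cell development, at 0.59 ± 0.28, without a call. TBX21 was at 0.64 without cold replicate 3 and at 0.18 without cold replicate 4. ID2 was at 0.30 without cold replicate 3, and at 0.86 without cold replicate 1, where it was called (limma p of 0.00592).

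Among the cytokine receptors 1 of 4 was called by limma, against 8.64% of all genes. IL2RG encodes the common gamma chain, through which lymphocytes receive IL-2, IL-15 and related cytokines. The log2 ratio of IL2RG was 0.16 to 0.47 in the controls, with a median of 0.29, and −0.01, −0.05, −0.25 and 0.02 in the cold. Here too all cold ferrets lay below all controls, beside 5.22% of all genes whose groups did not overlap in either direction. IL2RG fell by 0.37 on the log2 scale, with an SE of 0.08, a limma p of 0.00105 and an adjusted p of 0.0736. In Cy3 alone it was at −0.72, with an adjusted limma p of 0.0489, a threshold of 0.05 that 2.82% of all genes passed in Cy3 alone. Its Cy5 was lower in the cold too, at −0.20 with an unadjusted limma p of 0.0929. IL2RG lost its call with median centring, with the deposited table and with the replicate number as a block. IL2RB, the beta chain that NK cells use with it, was at −0.15 ± 0.27 (SE), and its ferrets overlapped.

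The cytokines that activate cytotoxic cells, mostly products of myeloid cells, gave 0 of 3 called by limma, with IL18 at 0.74 ± 0.26 (SE) and a limma p of 0.0165, IL15 at −0.03 ± 0.13 and IL12A, which was near background, at 0.02 ± 0.09. Of the secreted effectors and death ligands 0 of 5 were called. FASLG, the Fas ligand, was at 0.22 ± 0.14, TNF at 0.11 ± 0.11, TNFSF10 (TRAIL) at −0.35 ± 0.17, and CCL5, a chemokine stored by cytotoxic cells, at −0.05 ± 0.42. CCL5 varied widely between ferrets, with log2 ratios from −0.32 to 1.72 in the controls and from −0.26 to 1.66 in the cold. Of the traffic receptors 0 of 4 were called, and CX3CR1, the fractalkine receptor of mature cytotoxic cells and monocytes, was at −0.05 ± 0.17. Single ferrets moved several of these values. Without cold replicate 3, IL18 was at 0.45, FASLG at 0.36 and TNFSF10 at −0.23. Without cold replicate 4, IL18 was at 0.95 and TNFSF10 at −0.54, both called by limma (unadjusted p values of 0.00344 and 0.000976), and FASLG was at 0.11. TNF ran from 0.051 to 0.20 without 1 ferret. In Cy3 alone CX3CR1 was lower in the cold, at −0.58 with an adjusted limma p of 0.0466, but Cy5 was lower on the same arrays too, at −0.33 with an unadjusted limma p of 0.00721. The values of CX3CR1 rest on 2 of its 8 probes, which were above background in both channels on all 10 arrays, while the other 6 did not meet the condition on Cy3. For KLRG1, SH2D1B, IL15, TNF and FASLG, at least 50% of the Cy5 spots were above background on 5 arrays or fewer.

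**Figure D3:**
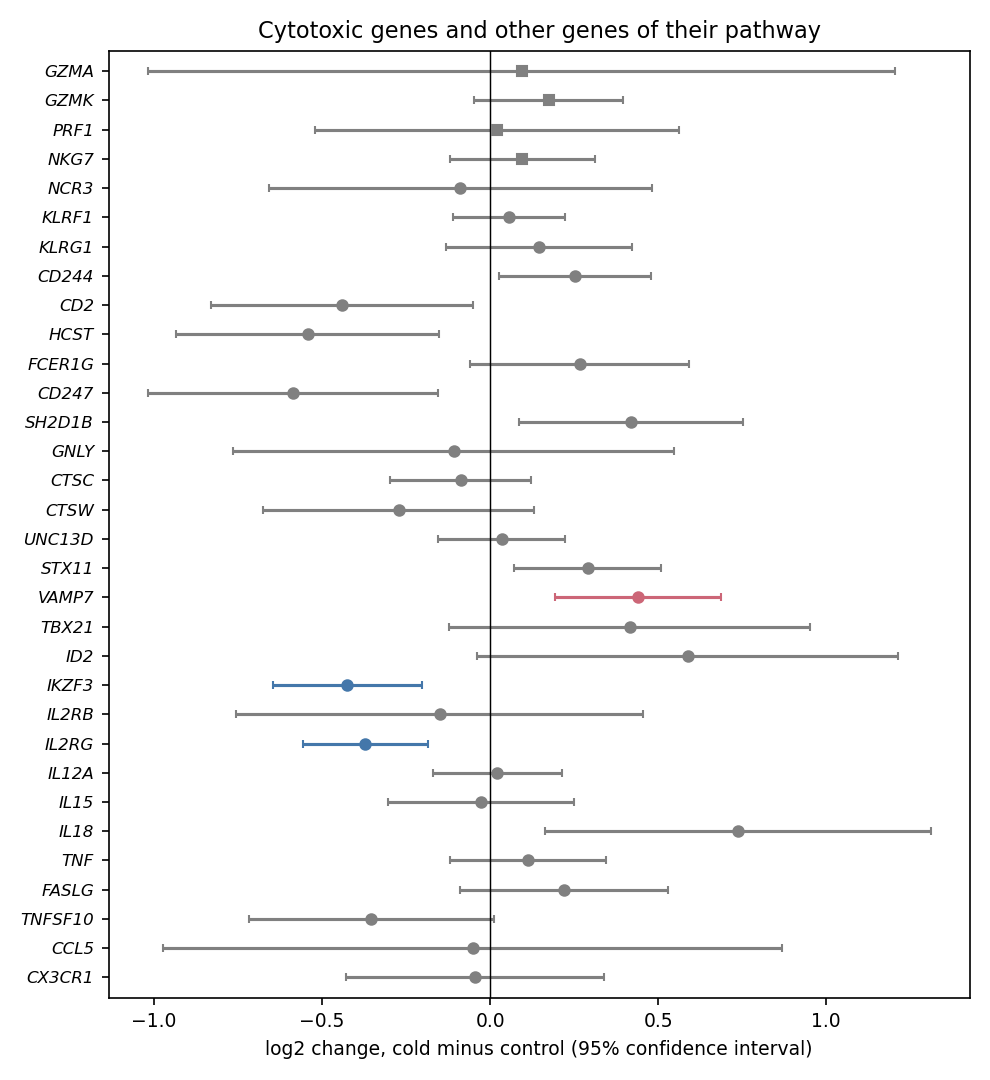
Log2 change of the ratio, cold minus control, with its 95% confidence interval (x axis) for the 4 measured cytotoxic genes (squares) and 28 further genes of the pathway (circles). Red and blue mark an unadjusted limma p under 0.01, higher (VAMP7) or lower (IKZF3, IL2RG) in the cold, and grey all others.

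As a description over the 10 arrays, each value taken as a deviation from its group mean, IL2RB followed PRF1 closely, with an r of 0.92 both in the ratio and in Cy3. HCST followed GZMA in the ratio at 0.83 and in Cy3 at 0.51. These were the highest of the named pathway genes in the ratio, and the lowest was STX11, at −0.67 with GZMA and −0.71 with PRF1, but in Cy3 alone STX11 was at 0.20 and −0.20. CD244 had −0.54 and −0.56 in the ratio and −0.30 and −0.07 in Cy3. GNLY had an r of 0.09 with GZMA and 0.53 with PRF1 in the ratio, and 0.10 and 0.60 in Cy3. With the mean of the 4 cytotoxic genes, the median r of a pathway list ran from −0.38 for granule release to 0.65 for the secreted effectors, beside 0.06 over all genes. The mean of the 4 cytotoxic genes, to which GZMA (r = 0.94) and PRF1 (r = 0.90) contribute most, was most like LOC101693455 (r = 0.93), LOC101671726 (r = 0.93), CUNH7orf50 (r = 0.91), KBTBD13 (r = 0.91) and PRPS1 (r = 0.91) among 9272 other genes with a symbol. In Cy3 alone the same comparison gave 0.95 and 0.78 for the first and the next, but 0.19 for CUNH7orf50 and 0.0018 for KBTBD13. All these values share the arrays and the reference pool.

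Markers of the other cells that a Ficoll fraction can hold were read from the same arrays. Of the T cell markers 11 of 14 were measured, 10 of them lower in the cold. By limma 1 of the 11 was called, against 8.64% of all genes, and 7 were lower with an unadjusted p under 0.05, against 12.5%. In Cy3 alone 6 of the 11 were called, all lower, against 4.36% of all genes called lower there. The marker that was not lower in the ratio, at 0.01, was among these 6, at −0.44. Its Cy5 was lower in the cold too, at −0.19 with a limma p of 0.0159. For the other called markers the Cy5 change ran from −0.15 to 0.17. The mean log2 ratio of the 11 markers per array ranged from 0.04 to 0.35 in the controls and from −0.82 to −0.02 in the cold. All 11 had at least 50% of their Cy3 spots above background on every array. The lowest T cell value, −0.82, was that of cold replicate 3, which was also lowest for PRF1 and, beside control replicate 2, for GZMA, whereas the lowest control, replicate 3 at 0.04, was the highest of all ferrets for GZMA. The CD8 T cell markers CD8A and CD8B were at −0.35 ± 0.13 (SE), with a limma p of 0.0235, and at −0.27 ± 0.21. Without cold replicate 3, CD8B was at −0.099, whereas CD8A was called in 2 of the 10 fits without 1 ferret. In Cy3 alone CD8B was at −0.56 with a limma p of 0.00842 and CD8A at −0.24 with a limma p of 0.0893. The Cy5 change of CD8B was −0.25 and that of CD8A 0.16. Of the monocyte markers 7 of 8 measured and of the neutrophil markers 6 of 6 were higher in the cold, with mean ratios per array of 0.15 to 0.61 against 0.54 to 1.18, and of 0.71 to 1.33 against 1.59 to 1.87. Platelet markers were higher in 5 of 5 (−0.01 to 1.62 against 1.01 to 2.20 in the mean ratio), B cell markers lower in 8 of 8 (−0.21 to 1.14 against 0.17 to 0.43) and erythroid markers lower in 4 of 4 (0.18 to 1.12 against −0.85 to −0.06). What part these cells had in the values of the cytotoxic genes was not tested.

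The sign of the small changes of GZMA and PRF1 was not stable. Leaving out 1 ferret turned it in 4 of 10 cases for GZMA and in 6 of 10 for PRF1, but in 0 for GZMK and NKG7. The changes of GZMK and NKG7 turned in Cy3 alone, to −0.15 and −0.23. With the deposited table they were larger, at 0.43 and 0.54, and with the software-processed intensities at 0.38 and 0.13. With the processed intensities of the scanner software, median centring or the authors' deposited value table, GZMA was at −0.04, −0.89 and −0.37 and PRF1 at −0.02, −0.998 and −0.46. In Cy3 alone GZMA stood at 0.08 and PRF1 at −0.06. Median centring moved the median change of all genes to −0.43. None of the 4 genes was called under any of these settings.

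**Figure D4:**
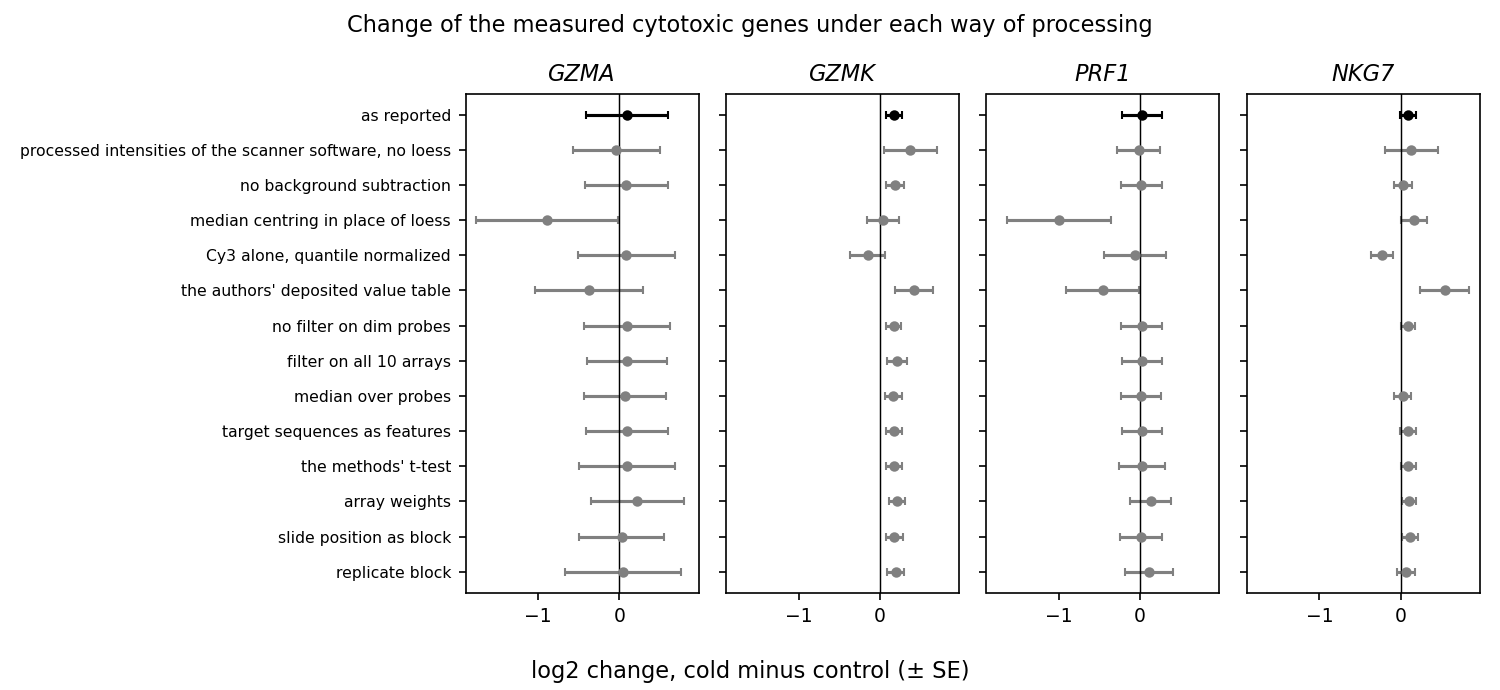
Log2 change ± SE, cold minus control (x axis), of the 4 measured cytotoxic genes as reported (black) and under each other way of processing (grey; NKG7 has no value where Cy3 had to be above background on all 10 arrays). The changes of GZMA and PRF1 reach −0.89 and −0.998 with median centring and lie between −0.46 and 0.22 under all other settings.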

How the data were processed

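The authors deposited, for each array, scanner intensities written by Agilent Feature Extraction 10.7.3.1 (median and local background of each spot in both channels, software-processed intensities, and flags), which are not normalized, and a table holding a log2 value for every target sequence. Differences between arrays in that deposited log2 table matched those of log2 Cy3 less log2 Cy5 from the intensities, with constants whose origin is not given in the sources used here. The files held no mean intensity, so the median was used.

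In R 4.3.3 with limma 3.58.1, background was corrected by normexp at an offset of 50, and the log2 ratio was normalized by loess (span 0.3, 4 iterations). Control spots and spots flagged as outliers were left out, and spots were averaged per probe, then probes per gene. Probes were retained if, on 4 arrays or more, Cy3 was flagged well above background at 50% of their spots or more. This left 111051 of 181312 probes and 26303 genes, after 2 genes with a missing value had been dropped. Of 45328 target sequences 21104 were named through RefSeq.

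Cold (n = 4) and control (n = 6) were compared with limma (lmFit, eBayes) over all genes. A gene was called at an unadjusted p under 0.01, the threshold of the methods, with Benjamini-Hochberg adjusted values beside it. Exact permutation tests used all 210 splits of the arrays, and tests of correlations 100000 permutations. Samples are separate ferrets, and the number of arrays limits the precision. Cy3 was well above background at 50.4 to 63.5% of spots and Cy5 at 27.0 to 64.0%, and the array correlations in the ratio were 0.756 to 0.938. Each array had its own slide, and scanning took place on 1 day.

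The cytotoxic genes and all gene lists were chosen with earlier results of these data known. Named besides them are every called gene of the 9 pathway lists and otherwise at most 4 genes per list, in the order the list was written, CD2, SH2D1B and the CD8 markers (the other marker lists are given as counts), and the 5 genes most like their mean. Alternatives changed the input (software-processed intensities, Cy3 alone, the deposited table), the normalisation (median centring, no background subtraction), the filter (none, or above background on all 10 arrays), the features (median of a gene's probes, target sequences), the test (array weights, the methods' t-test), the block (slide position, replicate number) or left out an array. No sequence or genome coordinate is given.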

Additional observations from a re-analysis of the deposited data

Results flagged for a closer look

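Each of the 34 named genes was examined in both groups for a ferret that stood apart, by the gap to its nearest neighbour as a share of the range of the group (Dixon's ratio). In 6 of 68 groups the ratio passed its 95% critical value, where chance gives about 1 in 20. Control replicate 5 was lowest for NKG7 (ratio 0.654), at a log2 ratio of −0.0017 with the next control at 0.18, through the single probe described above. The same array was highest for CD244 (ratio 0.644), at 0.43 with the next at 0.20. Control replicate 4 was lowest for CD247 (ratio 0.662), at −0.07 with the next at 0.23. Cold replicate 3 was lowest for CD247 (ratio 0.840), at −1.12 with the next at −0.21, and for CTSW (ratio 0.872), at −0.35 with the next at 0.52. Cold replicate 1 was lowest for UNC13D (ratio 0.887), at 0.69 with the next at 0.95.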

How the results depend on the processing

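The count of measured cytotoxic genes called stayed at 0 under every alternative and without any 1 array. It was 0 of 3 with the filter on all 10 arrays, where NKG7 had no value, and 0 of 4 otherwise. GZMK alone reached an unadjusted p under 0.05, with array weights (limma p of 0.0455) and without cold replicate 3 (limma p of 0.0216). The 3 called among the other 49 became 4 with software-processed intensities (CD244, IKZF3, IL2RG and STX11, without VAMP7), 1 with median centring, 0 with the deposited table, 6 with Cy3 alone, 6 with the median over probes and 7 with array weights, and 3 to 8 without 1 array, where VAMP7, IKZF3 and IL2RG stayed called throughout. It was 5 without control replicate 4 or 5 or cold replicate 1, 7 without cold replicate 4 and 8 without cold replicate 2. Over all genes, 2272 were called, 39.7% of them lower in the cold. This became 1505 (57.5% lower) with the software-processed intensities, 1163 (81.5%) with median centring, and 1093 (53.8%) with the deposited table. Without 1 array it ran from 1275 to 3386, the extremes being those without cold replicate 3 and cold replicate 2. The count over all genes was 2587 with Cy3 alone, 2263 with the median over probes and 2890 with array weights. It was 2036 without control replicate 4, 3352 without control replicate 5, 1670 without cold replicate 1 and 2058 without cold replicate 4. The count among the 49 thus rose both where the count over all genes rose and where it fell. Whether the 49 genes differed from the array in these counts was not tested.

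The log2 change turned its sign as follows, and the cause was not tested. With software-processed intensities it was −0.036 for GZMA, −0.021 for PRF1, −0.083 for UNC13D, 0.18 for IL15, −0.17 for TNF and −0.11 for FASLG. With median centring it was −0.89 for GZMA, −0.998 for PRF1, −0.86 for FCER1G, −0.097 for SH2D1B, −0.98 for UNC13D, −0.20 for VAMP7, −0.32 for TBX21, −0.39 for ID2, 0.19 for IL15, −0.18 for IL18, −0.15 for TNF and −0.13 for FASLG. With the deposited table it was −0.37 for GZMA, −0.46 for PRF1, −0.24 for FCER1G, −0.46 for UNC13D, 0.53 for IL15 and 0.33 for CX3CR1. With Cy3 alone it was −0.15 for GZMK, −0.059 for PRF1, −0.23 for NKG7, 0.30 for IL15, −0.33 for TNF and −0.17 for FASLG. With array weights it was 0.032 for GNLY, 0.11 for CCL5 and 0.038 for CX3CR1. Without background subtraction it was −0.029 for IL12A and 0.0097 for IL15, with slide position as a block 0.0037 for CX3CR1, and without 1 probe, an alternative added after the values were seen, −0.0083 for NKG7. Without 1 array it ran from −0.23 to 0.45 for GZMA, −0.14 to 0.22 for PRF1, −0.23 to 0.12 for NCR3, −0.29 to 0.085 for GNLY, −0.14 to 0.0068 for CTSC, −0.00046 to 0.10 for UNC13D, −0.29 to 0.10 for IL2RB, −0.020 to 0.080 for IL12A, −0.11 to 0.088 for IL15, −0.35 to 0.29 for CCL5 and −0.13 to 0.053 for CX3CR1.

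Control and cold samples share only the replicate numbers 1 to 4. The deviations of same-numbered samples from their group means correlated at −0.30, 0.54, 0.10 and −0.19, and in 0 of 4 cases was a sample most like its own number. With the replicate number as a block, 0 of 4 cytotoxic genes and 2 of the other 49 were called (SH2D1B and VAMP7), IKZF3 was at −0.44 with a limma p of 0.0166 and IL2RG at −0.36 with a limma p of 0.0247, and the sign turned for NCR3 (0.15), GNLY (0.20), IL2RB (0.014) and CX3CR1 (0.039). NKG7 could not be given with a filter on all 10 arrays, and neither could KLRF1 or other dim genes. Cy5 near background limits the ratios of GZMK and NKG7.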
